A study of Nicotiana tabacum with 60 samples.

Results

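The shares of sequencing reads that came from the nuclear, chloroplast and mitochondrial genomes of tobacco (Nicotiana tabacum) were followed in all 60 libraries of the series, 30 of ribosome profiling (Ribo-seq) and 30 of RNA-seq. The libraries were chosen by being listed with their mapping statistics, so none was selected on its values. Each share is the number of reads mapped to 1 genome divided by the reads mapped to the 3 genomes together, called mapped reads below. Reads from ribosomal and transfer RNA are given as a share of the trimmed reads. The study compared plants in which a subunit of a photosynthetic complex is disrupted or reduced with matched controls, 3 replicates per line and assay. It asked how the synthesis of chloroplast proteins responds.

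Of the 10 lines, 7 were mutants. In Δ3’-psbD, the end of psbD and the start of psbC (subunits D2 and CP43 of photosystem II, PSII) are replaced by the aadA resistance cassette. ΔpsbJ lacks psbJ, for a small PSII subunit. ΔpetB/D lacks petB and part of petD (cytochrome b6f complex) together with psbB, psbT, psbN and psbH of PSII. ΔpetN lacks petN, for a small cytochrome b6f subunit. ΔatpB/E, labelled as a deletion of atpB, lacks parts of atpB and atpE (ATP synthase) and is described as white. These 5 transplastomic lines, in which aadA sits in the chloroplast genome, were set against pRB8c, a line with aadA and intact photosynthesis genes. ΔpsaB carries a frameshift in psaB, a core subunit of photosystem I (PSI), and was set against the aadA line RB70. By the study's legends, 2 of its samples stem from one frameshift allele and the third from another, if the replicate numbers match. as-ATPC expresses an antisense RNA to the nuclear ATPC gene (γ subunit of ATP synthase), is a single line, and was set against its wild type SNN (WT SNN). The labels describe growth on medium with sucrose to about the 4-leaf stage, whereas the study states that as-ATPC and WT SNN were grown on soil in brighter light. The labels give Petit Havana as the cultivar of every line.

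A leaf cell makes protein in 3 places. Cytosolic ribosomes translate nuclear mRNAs, while chloroplasts and mitochondria keep small genomes with ribosomes of bacterial type. The chloroplast genome encodes core subunits of the photosynthetic complexes, the large subunit of Rubisco, and parts of its own ribosome and RNA polymerase, and these mRNAs are among the most abundant of a green cell. The mitochondrial genome encodes mainly subunits of the respiratory chain. A share in Ribo-seq therefore describes how the reads of footprint libraries are divided over the compartments, and a share in RNA-seq how the RNA is divided. Ribo-seq reads are called footprints below, whether or not they lie in a reading frame. Shares of 1 total are tied to each other: when one is lower, at least one of the others is higher. In whole tissue, fewer chloroplasts and less RNA per chloroplast cannot be told apart.

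Trimmed reads ran from 3507691 to 68824656 per Ribo-seq library and from 4084476 to 59013525 per RNA-seq library, with the 12 libraries of ΔpsaB and RB70 the shallowest. The 95% Wilson intervals, which cover counting error only, reached at most 0.0803 percentage points on either side of a chloroplast share, so the spread between replicates sets the precision. Of the genes that a deletion or insertion removes or truncates, 11 held at most 6.70% of the lowest control share in the Ribo-seq of their mutants: psbC, for example, held 0.00245%, 0.00230% and 0.00961% of mapped reads in Δ3’-psbD, against 1.46%, 1.12% and 1.15% in pRB8c. The exception was psbD, whose start is intact, with 0.211%, 0.272% and 0.166% in Δ3’-psbD, against 1.11%, 0.906% and 0.797% in pRB8c. In RNA-seq, atpE still held 0.203%, 0.262% and 0.256% of mapped reads in ΔatpB/E, against 0.186%, 0.206% and 0.158% in pRB8c. The petD RNA held 0.457%, 0.357% and 0.398% in ΔpetB/D, above the 0.159%, 0.160% and 0.141% of pRB8c. The psbD RNA of Δ3’-psbD overlapped that of pRB8c. psaB, which ends early by its frameshift, held 0.0456%, 0.318% and 0.894% of mapped footprints in ΔpsaB, against 1.43%, 1.27% and 1.11% in RB70, without overlap. ATPC was not analysed here. Replicate 1 of ΔpsaB stood apart from the other replicates of its line in both assays, and results that rest on it are given with and without it. The number of mitochondrial reads, 11483, is identical in the Ribo-seq libraries of ΔpsaB replicate 3 and RB70 replicate 3, although their other read numbers differ.

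Chloroplast footprints were a much smaller share of the Ribo-seq reads than chloroplast RNA was of the RNA-seq reads. The highest chloroplast share of a Ribo-seq library was 33.8% and the lowest of an RNA-seq library 36.3%, so the assays did not overlap in any line. In pRB8c the share averaged 24.2% ± 2.85 in Ribo-seq and 59.8% ± 1.46 in RNA-seq (SD, n = 3 each, as for all means below). The RNA-seq share was 1.98 times the Ribo-seq share in as-ATPC, the smallest ratio of the 10 lines, and 10.2 times in ΔatpB/E, the largest.

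**Figure D1:**
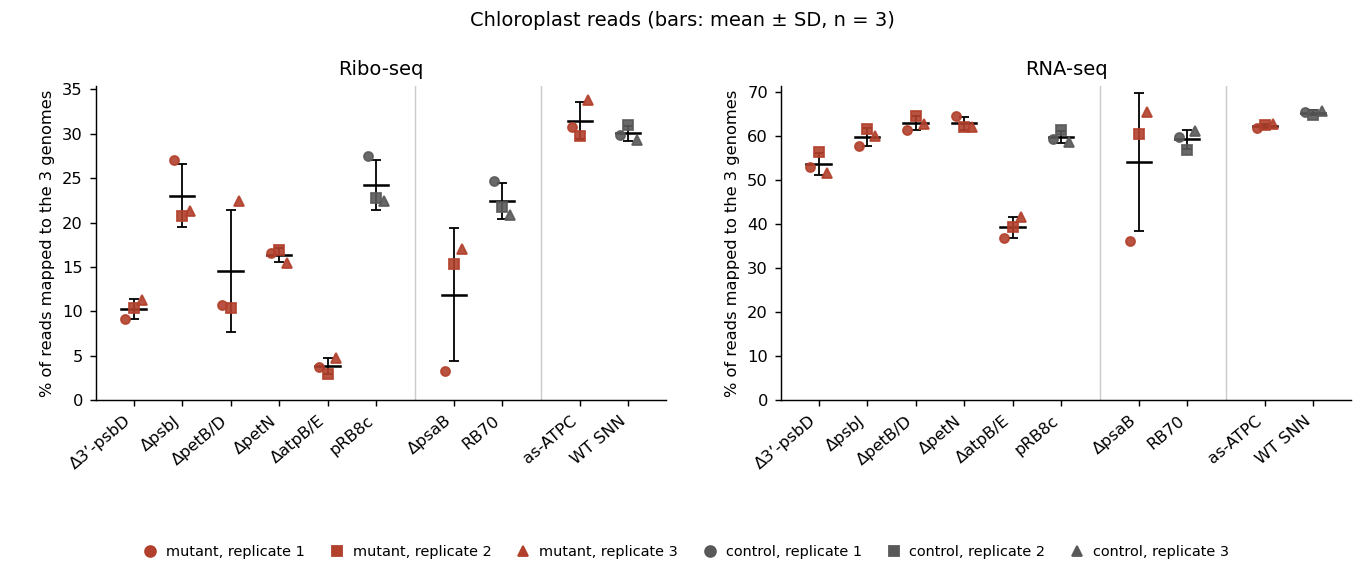
Share of chloroplast reads among reads mapped to the 3 genomes (y axis, percent) for each line (x axis), in Ribo-seq (left) and RNA-seq (right). Points are libraries, mutants in red and controls in grey, with mean ± SD (n = 3); vertical lines separate each set of mutants with its control. In Ribo-seq ΔatpB/E lies lowest, at 3.00% to 4.79%, and in RNA-seq its libraries lie at 36.9% to 41.7%.

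In Ribo-seq, 4 of 7 mutants had a chloroplast share below every library of their own control, and none had one above. With 3 against 3 libraries, the two-sided exact permutation test of the difference in means cannot give a p below 0.1, so no single comparison could reach 0.05. The 4 separated mutants had that smallest p (exact permutation p = 0.1, Benjamini-Hochberg adjusted over 7 comparisons 0.175). Separation of the libraries, the size of the difference and the SD are therefore given for each mutant.

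ΔatpB/E had the lowest share of chloroplast footprints. It was 3.77%, 3.00% and 4.79% in ΔatpB/E, against 27.5%, 22.7% and 22.4% in pRB8c. The mean of the mutant was 0.159 times that of the control. Nuclear footprints made up 95.5%, 96.3% and 94.5% of mapped reads in this white line, against 71.6%, 76.4% and 77.1% in pRB8c.

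Δ3’-psbD, whose genes for the PSII core subunits D2 and CP43 are truncated, had chloroplast footprint shares of 9.10%, 10.4% and 11.3%. All lay below the pRB8c libraries, and the mean of the mutant was 0.425 times that of the control. ΔpetN had 16.6%, 16.9% and 15.5%, again below all of pRB8c, with a mean of 0.675 times the control and an SD of 0.754 percentage points, the smallest among the mutants. Taken as a share of trimmed reads, the chloroplast footprints of ΔpetN averaged 4.03%, against 5.19% in pRB8c, and the groups overlapped. ΔpetB/D was uneven. Its replicates 1 and 2 had 10.8% and 10.3%, below all control libraries, whereas replicate 3 had 22.5%, within the range of pRB8c. Its mean was 0.600 times the control with all 3 replicates (exact permutation p = 0.2), and the difference of −9.68 percentage points became −13.7 without replicate 3, with the groups then apart.

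ΔpsbJ was the transplastomic knockout nearest to its control. Its chloroplast footprint shares were 27.1%, 20.7% and 21.3%, and they overlapped those of pRB8c (difference −1.19 percentage points, exact permutation p = 0.5). A p of this size does not show that the lines are alike, and the SD of the 3 mutant libraries was 3.52 percentage points. Without replicate 1 of ΔpsbJ the difference was −3.21 percentage points and the groups no longer overlapped.

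ΔpsaB had shares of 3.35%, 15.3% and 17.0%, all below the 24.7%, 21.7% and 20.9% of RB70. Replicate 1, at 3.35%, was as low as the ΔatpB/E libraries. Without it the mean was 16.2% in ΔpsaB, against 22.4% in RB70, and the groups stayed apart. In as-ATPC, the nuclear antisense line grown on soil, the share was 30.8%, 29.8% and 33.8%, against 29.9%, 30.9% and 29.2% in WT SNN, and the groups overlapped (exact permutation p = 0.5).

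By mean share of chloroplast footprints, the lines run from as-ATPC and WT SNN through pRB8c, ΔpsbJ, RB70, ΔpetN, ΔpetB/D, ΔpsaB and Δ3’-psbD to ΔatpB/E. Of the 9 pairs of neighbours in this order, 6 overlapped. The 3 steps without overlap lay between WT SNN and pRB8c, between RB70 and ΔpetN, and between Δ3’-psbD and ΔatpB/E.

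The chloroplast share of RNA-seq reads moved less and not always the same way. It was 36.9%, 39.3% and 41.7% in ΔatpB/E, against 59.4%, 61.5% and 58.6% in pRB8c, a mean of 0.657 times the control. Δ3’-psbD also lay below its control, at 53.0%, 56.5% and 51.8%. In contrast, ΔpetN had 64.5%, 62.1% and 62.1% and lay above all 3 pRB8c libraries, by 3.07 percentage points on average. ΔpetB/D averaged 63.0% ± 1.59, against 59.8% ± 1.46 in pRB8c, and the groups overlapped (exact permutation p = 0.2). ΔpsbJ averaged 59.9% ± 2.03, 0.0315 percentage points above pRB8c. Reads placed in no genome were more frequent in ΔpsbJ and ΔpetN than in their control, and counting them changes both comparisons. Taken instead as a share of all reads left after rRNA and tRNA, which includes these reads, the chloroplast RNA was 51.6% in ΔpetN and 48.1% in ΔpsbJ, against 54.1% in pRB8c. Both mutants then lay below every control library. In ΔpetN the direction thus turned. In ΔpsbJ, which had overlapped pRB8c with a difference of 0.0315 percentage points, a separation appeared.

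In the soil-grown pair the replicates were tight and a small difference separated them. The chloroplast RNA share was 61.9%, 62.5% and 62.7% in as-ATPC, against 65.6%, 64.8% and 65.8% in WT SNN, so it was 3.03 percentage points lower in the antisense line. ΔpsaB gave 36.3%, 60.6% and 65.5%, against 59.7%, 56.9% and 61.2% in RB70. Replicate 1 alone set the direction of this comparison. The difference was −5.14 percentage points with it and 3.79 without it, and the groups overlapped both times. In all, 1 of 7 mutants lay above and 3 below their control in the RNA-seq chloroplast share, each at the smallest p (exact permutation p = 0.1, adjusted 0.175). As a share of trimmed reads the separation was lost in Δ3’-psbD (−2.32 percentage points), ΔpetN (2.17) and as-ATPC (−0.795), and it held in ΔatpB/E (−13.8).

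Whether footprints and RNA of the chloroplast differed from the control to the same extent was asked with the ratio of chloroplast to nuclear reads, which the mitochondrial reads do not enter. The log2 ratio of each RNA-seq library was subtracted from that of the Ribo-seq library with the same replicate number, and the differences were compared between mutant and control. The mean does not depend on how the replicates are matched. The separation of the groups and the p-values can depend on it. Whether equal replicate numbers of Ribo-seq and RNA-seq belong together was not tested.

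In 5 of 7 mutants the ratio was lower in Ribo-seq, relative to RNA-seq, than in every control pair. In ΔatpB/E the log2 ratio was 3.02 below the control in Ribo-seq and 1.07 below it in RNA-seq. The difference of the assays was −1.95, so the chloroplast-to-nuclear ratio in Ribo-seq, relative to RNA-seq, was 0.259 times that of the control. Δ3’-psbD gave −1.21, from a change of −1.48 in Ribo-seq and −0.27 in RNA-seq. In ΔpetB/D the changes had opposite signs, −1.001 in Ribo-seq and 0.26 in RNA-seq, and their difference was −1.26. Likewise, ΔpetN gave −0.70 in Ribo-seq and 0.29 in RNA-seq, a difference of −0.997. ΔpsaB gave −1.26, and −0.92 without replicate 1.

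ΔpsbJ and as-ATPC were the exceptions. In ΔpsbJ the difference of the assays was −0.12 and its libraries overlapped those of pRB8c (exact permutation p = 0.7). In as-ATPC it was 0.29, above all 3 WT SNN pairs, with a change of 0.09 in Ribo-seq and −0.20 in RNA-seq. With reads in reading frames in place of all chloroplast reads, this difference was 0.18 and the groups overlapped. The 6 separated comparisons all had the smallest p (exact permutation p = 0.1, adjusted 0.117).

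**Figure D2:**
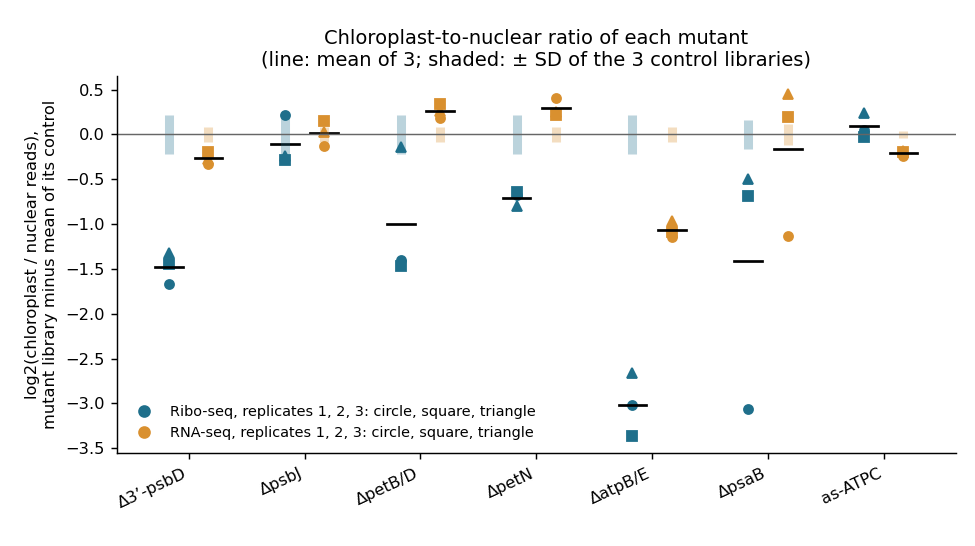
Change of the log2 ratio of chloroplast to nuclear reads (y axis) for each mutant library, relative to the mean of its 3 control libraries, in Ribo-seq (blue) and RNA-seq (orange). Lines mark the mean of 3 and shaded bars ± SD of the controls around 0. The Ribo-seq mean lies at −3.02 in ΔatpB/E and at −0.10 in ΔpsbJ; ΔpetN lies below 0 in Ribo-seq and above 0 in RNA-seq.

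A read mapped to the chloroplast genome need not come from a coding sequence. The deposited counts cover 78 chloroplast reading frames, without their first 10 and last 30 nucleotides in Ribo-seq and with only the last exon of genes with introns. The ribosomal RNAs that the study lists as removed by mapping are the cytosolic ones, next to tRNAs. Chloroplast rRNA is not among the listed sequences, and whether its fragments are among the chloroplast reads was not tested. The reads inside and outside the counted reading frames were therefore taken apart, a step added after the shares had been seen.

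In ΔatpB/E, ΔpetB/D, ΔpetN and ΔpsaB the reads inside the frames were below the control without overlap, and those outside overlapped it. In Δ3’-psbD both were separated, in opposite directions, and in as-ATPC only the reads outside the frames were. Reads in reading frames made up 1.33%, 1.38% and 1.79% of mapped reads in ΔatpB/E, against 25.5%, 19.1% and 18.2% in pRB8c, a mean of 0.0716 times the control. Chloroplast reads outside the frames made up 2.36% ± 0.693 of mapped reads in ΔatpB/E and 3.29% ± 1.15 in pRB8c, and the groups overlapped. In Δ3’-psbD the reads inside the frames were 4.85%, 5.77% and 2.76%, a mean of 0.213 times the control. Outside the frames it had 4.25%, 4.66% and 8.55%, above the 2.01%, 3.64% and 4.22% of pRB8c.

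ΔpetB/D was even inside the frames and uneven outside. Its 3 libraries had 7.80%, 6.49% and 7.83% of mapped reads inside the frames, all below pRB8c, with a mean of 0.353 times the control. Outside them they had 2.96%, 3.85% and 14.6%. The high chloroplast share of replicate 3 thus sat outside the counted frames, and with reads in frames in place of all chloroplast reads the ΔpetB/D libraries no longer overlapped those of pRB8c. ΔpetN had 11.7%, 13.5% and 9.79% inside the frames, also below all control libraries. ΔpsbJ averaged 19.6% ± 4.14 inside the frames, against 20.9% ± 3.98 in pRB8c.

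**Figure D3:**
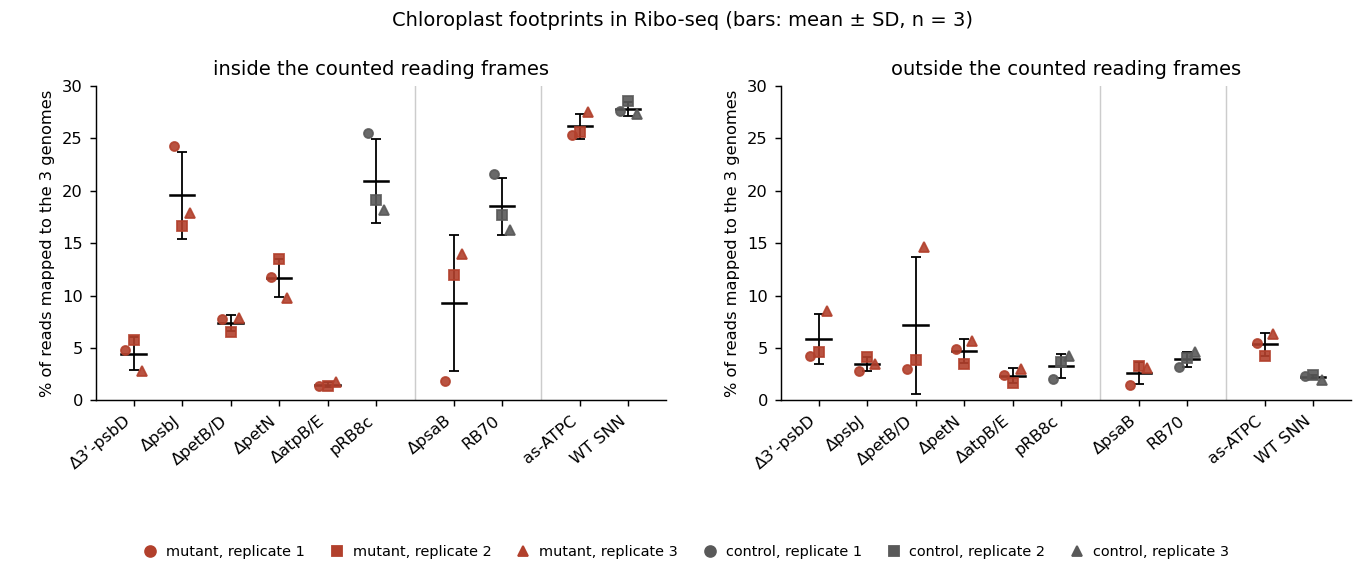
Chloroplast reads of the Ribo-seq libraries inside (left) and outside (right) the counted reading frames, as percent of reads mapped to the 3 genomes (y axis), by line (x axis). Points are libraries, with mean ± SD (n = 3). Inside the frames the 3 ΔpetB/D libraries lie between 6.49% and 7.83%, while outside them replicate 3 reaches 14.6%.

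As a share of the chloroplast reads, the reads in frames averaged 39.5% ± 5.68 in ΔatpB/E, 44.3% ± 17.3 in Δ3’-psbD, 56.7% ± 19.5 in ΔpetB/D and 71.2% ± 8.22 in ΔpetN, against 85.9% ± 6.02 in pRB8c. These 4 mutants and as-ATPC lay below their control (exact permutation p = 0.1, adjusted 0.14). as-ATPC had 82.2%, 85.9% and 81.3%, against 92.2%, 92.3% and 93.3% in WT SNN. Reads inside the frames made up 26.1% ± 1.20 of mapped reads in as-ATPC and 27.8% ± 0.662 in WT SNN, and the libraries overlapped. Outside the frames the antisense line had 5.34% ± 1.07 and the wild type 2.23% ± 0.225, with no overlap (exact permutation p = 0.1, adjusted 0.35).

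In RNA-seq the share of chloroplast reads in frames was 74.7% ± 2.98 in ΔatpB/E and 81.3% ± 1.02 in Δ3’-psbD, against 86.2% ± 0.785 in pRB8c. Of the 6 RNA-seq libraries of ΔpsaB and RB70, 5 had more counts in reading frames than reads mapped to the chloroplast, at 109% to 114%, which no other library showed. For these 2 lines the RNA-seq counts per frame are therefore not a part of the chloroplast reads, and no RNA-seq value by gene or complex is given for them. Their shares by genome do not use these counts.

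The complexes showed which frames made up the share. The genes were grouped by complex, and the reads in their frames summed as a percentage of mapped reads. Rubisco is represented by rbcL alone, PSII by 15 genes, cytochrome b6f by 6, PSI by 5, ATP synthase by 6, the NADH dehydrogenase-like complex (NDH) by 11, the ribosome by 21 and the RNA polymerase by 4. The deleted genes are members of their complex and lower its sum. In pRB8c rbcL held 8.37% ± 2.29 and PSII 7.13% ± 0.512 of the mapped Ribo-seq reads, followed by PSI with 3.38% ± 0.818.

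rbcL encodes the large subunit of Rubisco, the CO2-fixing enzyme. It held 0.245%, 0.285% and 0.301% of mapped footprints in ΔatpB/E, against 11.0%, 7.35% and 6.77% in pRB8c, so the mean was 0.0331 times the control. Of the 7 mutants, 6 lay below all their control libraries for rbcL, and the exception was ΔpsbJ with 9.33%, 4.12% and 5.30%. As a share of the reads in chloroplast frames, rbcL overlapped the control in 2 of these 6, at 34.4% in Δ3’-psbD, against 39.6% in pRB8c, and at 24.3% in ΔpsaB, against 33.5% in RB70. In as-ATPC rbcL held 8.07%, 8.74% and 8.78%, against 12.2%, 12.6% and 12.1% in WT SNN. The rbcL RNA of ΔatpB/E held 7.13%, 8.77% and 8.98% of RNA-seq reads, against 17.5%, 20.6% and 16.6% in pRB8c.

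psbA encodes the D1 protein of PSII. Its footprints held 0.158%, 0.184% and 0.361% of mapped reads in Δ3’-psbD, 0.202%, 0.237% and 0.276% in ΔpetB/D, and 0.441%, 0.460% and 0.421% in ΔpetN, against 2.91%, 3.74% and 3.09% in pRB8c. ΔatpB/E had 0.114%, 0.153% and 0.313%, also below pRB8c. ΔpsaB had 0.318%, 0.940% and 1.43%, against 4.33%, 2.35% and 4.76% in RB70, and the groups did not overlap. In 2 mutants the psbA footprints lay above the control. ΔpsbJ had 5.44%, 4.95% and 4.93%, all above pRB8c, and as-ATPC had 7.19%, 6.96% and 7.85%, against 3.61%, 3.69% and 3.46% in WT SNN. The psbA RNA of as-ATPC held 7.10%, 6.89% and 6.60% of RNA-seq reads, against 8.31%, 7.65% and 6.79% in WT SNN, and the groups overlapped. In ΔpsbJ the psbA RNA held 11.1%, 9.76% and 9.69%, below the 13.9%, 12.9% and 15.6% of pRB8c.

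The sum over PSII ordered these mutants in a similar way. Its footprints averaged 0.571% ± 0.147 in ΔatpB/E, 1.02% ± 0.0805 in Δ3’-psbD, 2.07% ± 0.238 in ΔpetB/D and 3.15% ± 0.395 in ΔpetN, all below pRB8c. In ΔpsbJ they averaged 8.49% ± 0.761, above pRB8c. There the PSII sum lay 1.37 percentage points above the control on average, and psbA alone 1.86. In as-ATPC the sum lay 2.75 percentage points above WT SNN, and psbA alone 3.75. The other PSII frames together were thus lower than the control on average in both. As a share of the reads in chloroplast frames, PSII made up 37.7% in ΔatpB/E, against 34.6% in pRB8c, so in this mutant the direction turned and the groups overlapped. On that scale the PSII frames also overlapped the control in Δ3’-psbD, at 25.02%, and in ΔpetN, at 27.3%. psbB, for the PSII core antenna CP47, is deleted in ΔpetB/D. In ΔpsbJ, where it is intact, it held 0.603%, 0.144% and 0.318% of footprints, against 1.57%, 1.03% and 1.12% in pRB8c.

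PSI and cytochrome b6f were not below the control in every mutant. In ΔpetN the PSI footprints averaged 3.60% ± 0.620, against 3.38% ± 0.818 in pRB8c, with overlap, and the remaining cytochrome b6f frames reached 0.439% ± 0.0912, against 0.221% ± 0.0219, without overlap. In RNA-seq the PSI genes of ΔpetN held 10.7% ± 0.972 of mapped reads, against 5.93% ± 0.350 in pRB8c. psaA, for a PSI core subunit, averaged 5.07% of the ΔpetN RNA-seq reads, against 2.95% in pRB8c, and psaB 5.41%, against 2.77%. In Δ3’-psbD the PSI footprints averaged 0.782% ± 0.247, 0.231 times the control, but 17.7% of the reads in chloroplast frames, against 16.1% in pRB8c.

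The frames of the expression machinery lay on either side of the control. The 21 ribosomal protein genes of the chloroplast averaged 0.527% ± 0.0540 of mapped footprints in ΔpetN and 0.465% ± 0.0555 in ΔpsbJ, against 0.322% ± 0.0637 in pRB8c, above it in both. They were below pRB8c in ΔatpB/E, with 0.130% ± 0.0271 or 0.403 times the control, and in Δ3’-psbD, with 0.221% ± 0.0557 or 0.688 times. In ΔatpB/E rbcL was at 0.0331 times. The 4 RNA polymerase genes held 0.0336% ± 0.00447 of footprints in ΔatpB/E and 0.0325% ± 0.0144 in pRB8c, with overlap. In RNA-seq the same 4 genes held 0.742% ± 0.324 in ΔatpB/E and 0.655% ± 0.200 in Δ3’-psbD, against 0.128% ± 0.0163 in pRB8c, more than all control libraries. Across the 5 mutants set against pRB8c this RNA was 3.17 to 5.80 times the control. These are sums of reads per complex, not compared between complexes per length.

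The mix of frames also differed. Among the reads in chloroplast frames, the ribosomal protein genes made up 8.62% in ΔatpB/E and 5.10% in Δ3’-psbD, against 1.54% in pRB8c, so these lists were lower as a share of all mapped footprints and higher as a share of the chloroplast ones. Rubisco, the photosynthetic complexes and NDH together, 44 genes, made up 83.3% of the reads in frames in ΔatpB/E, against 97.7% in pRB8c.

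**Figure D4:**
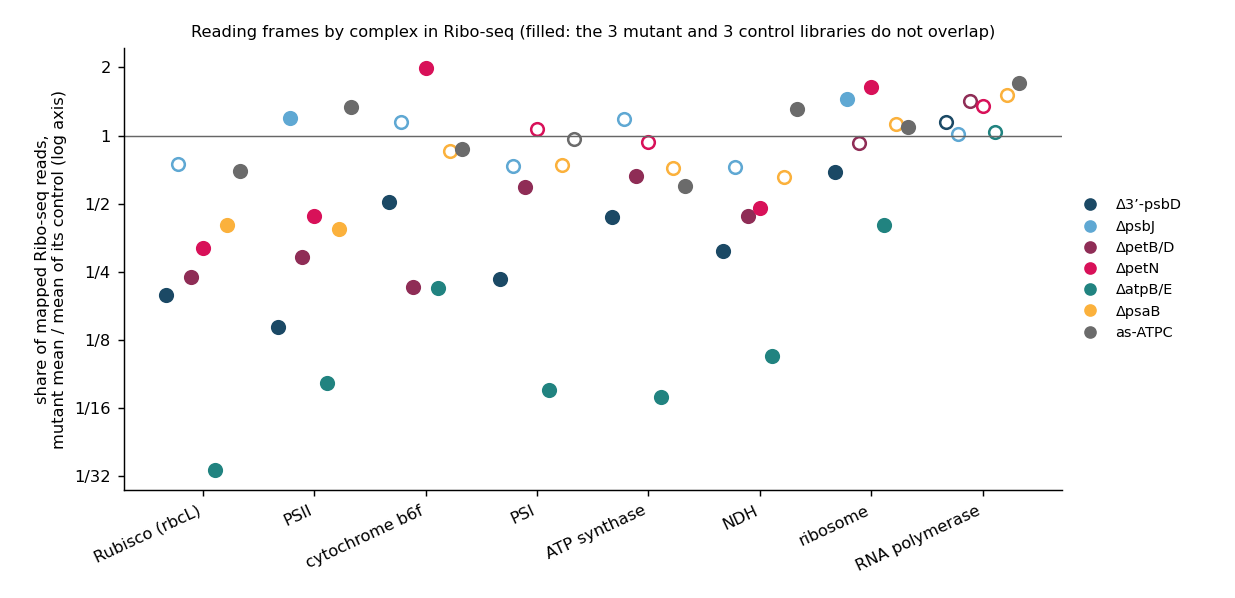
Footprints in the reading frames of each complex, as share of mapped Ribo-seq reads, mutant mean divided by the mean of its control (y axis, log scale) for 7 mutants (colours). Filled circles mark complexes whose 3 mutant and 3 control libraries do not overlap. ΔatpB/E lies at 0.0331 for Rubisco and at 1.04 for the RNA polymerase. PSII lies above 1 in ΔpsbJ and as-ATPC, where psbA alone rose by more percentage points than the PSII sum. As shares of the reads in chloroplast frames, several directions turn.

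Mitochondrial reads were rare in Ribo-seq, and the sucrose-grown mutants overlapped their controls. The share was 0.543% to 1.03% in the 18 libraries of pRB8c and its 5 mutants. In ΔatpB/E, with the fewest chloroplast footprints, mitochondrial footprints held 0.760%, 0.694% and 0.727%, against 0.860%, 0.901% and 0.543% in pRB8c. The separated comparison was as-ATPC, with 2.56% ± 0.142, against 2.94% ± 0.271 in WT SNN (exact permutation p = 0.1, adjusted 0.7).

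In RNA-seq the mitochondrial share was higher in 4 of 7 mutants than in any of their control libraries (exact permutation p = 0.1, adjusted 0.175). It was 15.8%, 12.0% and 10.9% in ΔatpB/E, against 5.40%, 5.18% and 5.69% in pRB8c, a mean of 2.38 times the control. Δ3’-psbD had 8.40%, 5.90% and 11.9%, ΔpetN 7.19%, 7.03% and 7.60%, and ΔpetB/D 7.12%, 5.73% and 6.82%. ΔpsbJ had 5.55%, 5.87% and 5.69% and overlapped the control. ΔpsaB had 16.3%, 7.80% and 5.97%, against 4.92%, 6.04% and 5.09% in RB70, with overlap, and its difference of 4.69 percentage points was 1.54 without replicate 1.

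A lower chloroplast share raises the other shares of the same total, so the mitochondrial reads were also set against nuclear plus mitochondrial reads alone, a step chosen after the data were seen. By this measure mitochondrial RNA averaged 21.2% ± 3.41 in ΔatpB/E, 19.6% ± 0.938 in ΔpetN and 17.7% ± 1.28 in ΔpetB/D, against 13.5% ± 0.223 in pRB8c, still without overlap. For ΔatpB/E the ratio to the control was 1.57. Δ3’-psbD, at 17.9%, 13.6% and 24.6%, now overlapped pRB8c, whose libraries had 13.3%, 13.4% and 13.8%. ΔpsaB had 25.6%, 19.8% and 17.3%, against 13.1% ± 0.898 in RB70, and as-ATPC averaged 9.12% ± 0.0930, below the 10.1% ± 0.486 of WT SNN.

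**Figure D5:**
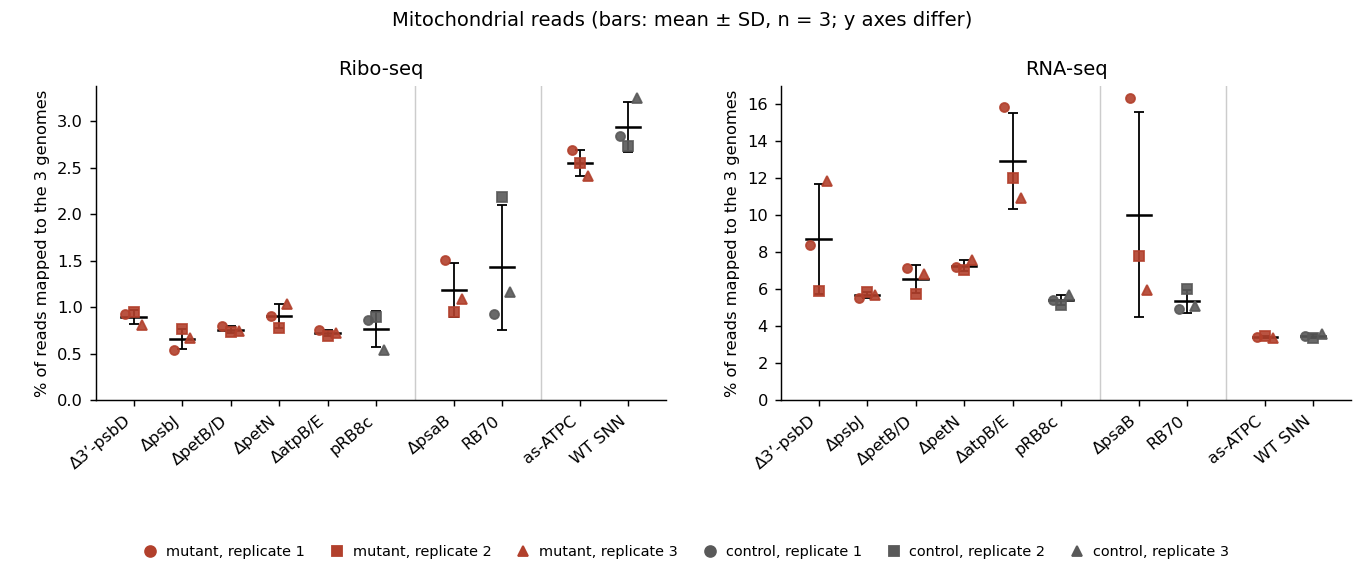
Share of mitochondrial reads among reads mapped to the 3 genomes (y axis, percent, different scales) by line (x axis), in Ribo-seq (left) and RNA-seq (right). Points are libraries, with mean ± SD (n = 3). as-ATPC and WT SNN lie highest in Ribo-seq, at 2.42% to 3.25%, and lowest in RNA-seq, at 3.37% to 3.61%.

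Footprints and RNA of the mitochondria ordered the lines differently. Mitochondrial footprints held 1.43% ± 0.669 of mapped reads in RB70 and 2.94% ± 0.271 in WT SNN, against 0.768% ± 0.196 in pRB8c. All libraries of both lines lay above those of pRB8c (exact permutation p = 0.1, adjusted over RB70 and WT SNN alone 0.1). In RNA-seq the WT SNN share of 3.48% ± 0.121 lay below the 5.42% ± 0.257 of pRB8c. The share of mitochondrial reads was 7.06 times higher in RNA-seq than in Ribo-seq of pRB8c, but 1.18 times higher in WT SNN. Between WT SNN and pRB8c growth, light and line differ together and cannot be told apart. For RB70 and pRB8c, the study states the same growth and light for the mutants set against them, grown beside their controls. Their Ribo-seq depth differed, with 3680221, 4850140 and 3533884 trimmed reads in RB70, against 27835122, 39021227 and 50118279 in pRB8c. The RB70 mitochondrial footprint shares were uneven, at 0.933%, 2.19% and 1.17%, and replicate 3 has the read number also found in ΔpsaB. What sets RB70 apart from pRB8c in this share was not tested.

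The chloroplast share of RB70 overlapped that of pRB8c in both assays. WT SNN lay above pRB8c, at 30.02% ± 0.8496 against 24.2% ± 2.85 in Ribo-seq and 65.4% ± 0.511 against 59.8% ± 1.46 in RNA-seq.

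Nuclear reads were the remainder. In Ribo-seq the same 4 mutants that were low in chloroplast footprints were higher in nuclear ones than their controls, with means of 88.8% in Δ3’-psbD, 82.8% in ΔpetN and 95.4% in ΔatpB/E, against 75.0% in pRB8c, and 86.9% in ΔpsaB, against 76.1% in RB70. Without replicate 1 the ΔpsaB mean was 82.8%, and the difference was 6.67 percentage points in place of 10.8, still without overlap. As a share of trimmed reads the nuclear footprints of ΔatpB/E were 17.0%, against 16.1% in pRB8c, and overlapped, and those of Δ3’-psbD were 14.9%, below pRB8c on average, with overlap. Those of ΔpsaB were 25.6%, against 22.0% in RB70, also with overlap. In RNA-seq the nuclear share was 28.3%, 30.9% and 30.3% in ΔpetN and 31.4%, 29.7% and 30.4% in ΔpetB/D, below the 35.2%, 33.4% and 35.7% of pRB8c in both. It was above the control in ΔatpB/E, Δ3’-psbD and as-ATPC.

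The share of trimmed reads from rRNA and tRNA, which is measured before the 3 genomes, ranged from 17.3% to 43.6% in Ribo-seq and from 21.6% to 39.2% in RNA-seq. In Ribo-seq one mutant was separated, as-ATPC with 24.0%, 21.6% and 22.4%, against 18.6%, 17.3% and 18.3% in WT SNN (exact permutation p = 0.1, adjusted 0.35). The pRB8c libraries varied widely, at 36.2%, 40.9% and 27.1% in pRB8c. In RNA-seq 4 mutants lay below their control: ΔpsbJ, ΔpetB/D, ΔpetN and as-ATPC (exact permutation p = 0.1, adjusted 0.175). ΔpsbJ had 22.0%, 21.6% and 22.8%, against 31.2%, 29.9% and 36.0% in pRB8c.

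Reads placed neither in rRNA and tRNA nor in a genome were 39.2% to 51.1% of the trimmed reads in Ribo-seq. In RNA-seq they were 15.3% ± 0.339 in ΔpsbJ and 13.5% ± 0.355 in ΔpetN, against 6.54% ± 0.241 in pRB8c. The other 3 mutants set against pRB8c had 7.74% to 8.13% on average, also above all pRB8c libraries. The libraries of all mutants set against pRB8c, and those of ΔpsbJ and ΔpetN most, thus differed from it in a part of the reads that no share of mapped reads counts. With these reads in the denominator, the chloroplast share of the RNA-seq reads differed from pRB8c by −5.95 percentage points in ΔpsbJ and by −2.48 in ΔpetN, in place of 0.0315 and 3.07.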

How the data were processed

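Ribo-seq and RNA-seq libraries of 10 tobacco lines, with 3 biological replicates each by the study's account, were analysed. After adapter removal with cutadapt, the authors ran STAR 2.7.1a step by step, each step on the reads the previous one had not placed: first against rRNA and tRNA sequences, then against the plastid genome, then the mitochondrial one, last the nuclear one. They deposited the whole read count of each step per library. The other deposited tables hold counts per chloroplast reading frame for Ribo-seq and, for RNA-seq, values treated as estimated counts, since 94 values in 6 genes were not whole. The authors' footprint libraries were size-selected, with rRNA removed by oligonucleotides, whereas the total RNA was depleted by a kit, so the levels of the assays come from different protocols.

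Shares, log2 ratios and sums per complex were computed with Python 3.11.15, numpy 2.4.6 and scipy 1.17.1, without a filter on low values, and plotted with matplotlib 3.10.9. Each mutant was compared with its own control by a two-sided exact permutation test of the difference in means over 20 arrangements, adjusted by Benjamini-Hochberg over the 7 comparisons of a measure and assay. Groups were called apart when the ranges of mutant and control libraries did not overlap. The 5 mutants set against pRB8c share its libraries, so their comparisons are not independent. The genes named were rbcL, psbA and, per comparison and assay, up to 3 others with the largest difference in their share of mapped reads, besides the deleted genes used to check the labels. The lines, lists and measures were chosen with earlier results of these data known.

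Equal replicate numbers were checked for pairing by correlating deviations from the group means over reading frames: r ran from −0.584 to 0.643 over 42 pairs. Every pair exceeded 0.1 in 2 of 14 comparisons, the RNA-seq of Δ3’-psbD and of ΔpsaB. Alternatives left out each replicate, changed the denominator, used the log2 scale, exchanged pRB8c and RB70, and paired replicates by number.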

Additional observations from a re-analysis of the deposited data

Results flagged for a closer look

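As shares of mapped reads, footprints and RNA of ΔpetN differed from the control in opposite directions. Its chloroplast share differed from pRB8c by −7.87 percentage points in Ribo-seq and by 3.07 in RNA-seq, a difference of −10.9 between the assays (exact permutation p = 0.1, the smallest possible with 3 against 3). The nuclear share of ΔpetN differed by 7.74 percentage points in Ribo-seq and by −4.92 in RNA-seq, a difference of 12.7 (exact permutation p = 0.1). On the log2 ratio of chloroplast to nuclear reads the difference between the assays was −0.997. In as-ATPC the share of rRNA and tRNA reads differed from WT SNN by 4.61 percentage points in Ribo-seq and by −1.35 in RNA-seq, a difference of 5.96 (exact permutation p = 0.1). All libraries of each mutant lay on one side of the control in one assay and on the other side in the other assay. The RNA-seq libraries of ΔpetN also held 13.5% reads placed in no reference, against 6.54% in pRB8c. With these reads in the denominator, as shares of the reads left after rRNA and tRNA, the chloroplast difference of ΔpetN was −2.24 percentage points in Ribo-seq and −2.48 in RNA-seq, so the directions were no longer opposite. As shares of trimmed reads it was −1.16 in Ribo-seq and 2.17 in RNA-seq, and the groups overlapped in both.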

How the results depend on the processing

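Differences are mutant minus control in percentage points unless stated, and those given are the ones whose overlap of groups or direction changed (for the complexes, the direction alone), with the cause not tested. As shares of trimmed reads, the chloroplast share in Ribo-seq differed by −2.84 in ΔpetB/D, −1.16 in ΔpetN and −1.10 in as-ATPC. The chloroplast share in RNA-seq differed by −2.32 in Δ3’-psbD, 2.17 in ΔpetN and −0.795 in as-ATPC. The mitochondrial share in Ribo-seq differed by 0.0589 in ΔpetN. The mitochondrial share in RNA-seq differed by 0.259 in ΔpsbJ and 2.28 in ΔpsaB. The nuclear share in Ribo-seq differed by −1.13 in Δ3’-psbD, 4.39 in ΔpsbJ, −2.43 in ΔpetB/D, 0.928 in ΔatpB/E, 3.60 in ΔpsaB and −3.84 in as-ATPC. As shares of the reads left after rRNA and tRNA, the chloroplast share in Ribo-seq differed by −4.25 in ΔpetB/D. The chloroplast share in RNA-seq differed by −5.95 in ΔpsbJ and −2.48 in ΔpetN. The mitochondrial share in RNA-seq differed by −0.316 in ΔpsbJ and 4.06 in ΔpsaB. The nuclear share in Ribo-seq differed by 0.657 in Δ3’-psbD, 2.98 in ΔpsbJ, −3.02 in ΔpetB/D, 2.57 in ΔatpB/E and −3.11 in as-ATPC. The nuclear share in RNA-seq differed by −3.73 in ΔpsbJ. Against RB70 in place of pRB8c, the chloroplast share in RNA-seq differed by 3.69 in ΔpetB/D. The mitochondrial share in Ribo-seq differed by −0.536 in Δ3’-psbD, −0.771 in ΔpsbJ, −0.670 in ΔpetB/D, −0.528 in ΔpetN and −0.704 in ΔatpB/E. The mitochondrial share in RNA-seq differed by 3.37 in Δ3’-psbD and 1.21 in ΔpetB/D. The nuclear share in RNA-seq differed by 2.13 in Δ3’-psbD. The rRNA-tRNA share in Ribo-seq differed by 14.7 in Δ3’-psbD, 10.6 in ΔpetB/D and 11.0 in ΔatpB/E. The rRNA-tRNA share in RNA-seq differed by 1.44 in ΔpetB/D and −2.81 in ΔpetN. The share in frames in Ribo-seq differed by −11.0 in ΔpetN. Against pRB8c in place of RB70, the mitochondrial share in Ribo-seq differed by 0.418 in ΔpsaB. The mitochondrial share in RNA-seq differed by 4.61 in ΔpsaB. The rRNA-tRNA share in Ribo-seq differed by −13.3 in ΔpsaB. With chloroplast reads left out, an alternative chosen after seeing the data, the mitochondrial share in RNA-seq differed by 5.17 in Δ3’-psbD, 7.81 in ΔpsaB and −0.941 in as-ATPC. With reads in frames in place of all chloroplast reads, the chloroplast share in Ribo-seq differed by −13.6 in ΔpetB/D. The log2 footprint-to-RNA difference differed by 0.18 in as-ATPC. As shares of the reads in chloroplast frames, the PSII frames in Ribo-seq differed by 3.15 in ΔatpB/E. The cytochrome b6f frames in Ribo-seq differed by 1.50 in Δ3’-psbD, 2.04 in ΔatpB/E and 1.28 in ΔpsaB. The PSI frames in Ribo-seq differed by 1.65 in Δ3’-psbD, 10.9 in ΔpetB/D, 0.894 in ΔatpB/E and 5.01 in ΔpsaB. The ATP synthase frames in Ribo-seq differed by 5.30 in Δ3’-psbD, 4.67 in ΔpetB/D, 3.72 in ΔpetN and 2.93 in ΔpsaB. The NDH frames in Ribo-seq differed by 0.469 in Δ3’-psbD, 0.326 in ΔpetB/D, 0.608 in ΔatpB/E and 0.383 in ΔpsaB. The ribosome frames in Ribo-seq differed by 3.56 in Δ3’-psbD, 2.55 in ΔpetB/D and 7.08 in ΔatpB/E. The remaining frames in Ribo-seq differed by 1.54 in Δ3’-psbD, 0.945 in ΔpetB/D, 0.392 in ΔpetN and 5.15 in ΔatpB/E. The cytochrome b6f frames in RNA-seq differed by 0.570 in ΔatpB/E and 0.0549 in as-ATPC. The ATP synthase frames in RNA-seq differed by 0.153 in ΔatpB/E and 0.299 in as-ATPC. Of the 117 results by complex, 27 thus turned, 10 kept their direction but lost the separation of the groups, 15 gained it and 65 did neither. RNA-seq frame counts of ΔpsaB and RB70 exceed the chloroplast reads and were not used for any share in frames, so the alternatives that need them were not run. Leaving out each replicate in turn gave the following ranges. The chloroplast share in Ribo-seq ran over −3.21 to 0.458 in ΔpsbJ and −13.7 to −7.59 in ΔpetB/D. The chloroplast share in RNA-seq ran over 2.30 to 3.93 in ΔpetB/D and −10.8 to 3.79 in ΔpsaB. The mitochondrial share in Ribo-seq ran over 0.0141 to 0.193 in Δ3’-psbD, −0.221 to −0.0423 in ΔpsbJ, −0.119 to 0.0592 in ΔpetB/D, 0.0228 to 0.202 in ΔpetN and −0.154 to 0.0249 in ΔatpB/E. The mitochondrial share in RNA-seq ran over 0.158 to 0.415 in ΔpsbJ, 1.54 to 6.72 in ΔpsaB and −0.104 to 0.0168 in as-ATPC. The nuclear share in Ribo-seq ran over −0.395 to 3.26 in ΔpsbJ and 7.59 to 13.7 in ΔpetB/D. The nuclear share in RNA-seq ran over −5.33 to 4.12 in ΔpsaB. The rRNA-tRNA share in Ribo-seq ran over 2.22 to 9.10 in Δ3’-psbD, −12.8 to −5.89 in ΔpsbJ, −8.87 to −1.99 in ΔpetN and −6.94 to −2.96 in ΔpsaB. The rRNA-tRNA share in RNA-seq ran over −6.11 to −2.36 in Δ3’-psbD and 5.29 to 10.6 in ΔpsaB. The share in frames in RNA-seq ran over −1.64 to −0.639 in ΔpsbJ. The log2 footprint-to-RNA difference ran over −0.349 to 0.0420 in ΔpsbJ. The cytochrome b6f frames in Ribo-seq ran over −0.140 to 0.0719 in ΔpsaB. The remaining frames in Ribo-seq ran over −0.0176 to 0.0217 in ΔpsbJ and −0.0249 to 0.0143 in ΔpetN. The PSI frames in RNA-seq ran over −0.550 to 0.689 in ΔpetB/D. The ATP synthase frames in RNA-seq ran over −0.0676 to 0.0806 in as-ATPC. The replicate block pairs libraries by number and leaves each mean as it was, so no direction could change. Its sign-flip test gave the smallest exact p of 0.25 in 55 of 76 results.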
